A study of Homo sapiens with 12 samples.

Results

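The genes described here are the 6 cyclin-dependent kinase (CDK) inhibitor genes of the INK4 and CIP families: CDKN1A and CDKN1B of the CIP family, and CDKN2A, CDKN2B, CDKN2C and CDKN2D of the INK4 family. They were chosen by symbol, with earlier results of these data known, and 6 of 6 were found among the 60660 gene identifiers of the count table. RNA-seq counts were available for 12 libraries in 4 groups of 3, labelled as HS578T, a mesenchymal-like triple-negative breast cancer cell line. The intact groups carry the name Cas9 with a genotype given as WT, and the deleted groups the name 17PKO with a genotype of 1 lost copy of the short arm of chromosome 17 (17p). Each genotype was kept for 48 h in DMSO, the vehicle, or in doxorubicin, an anthracycline that poisons topoisomerase II and breaks DNA. Intact cells received 170 nM and deleted cells 1 µM doxorubicin, so genotype and dose cannot be told apart wherever treated cells of both genotypes are compared. The labels name no clone, pool or separate culture for the replicates, and p-values therefore measure the spread between these libraries, which may be technical.

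CDK inhibitors hold back the kinases that drive a cell from G1 into S phase. INK4 proteins bind CDK4 and CDK6 and keep them from joining D-type cyclins, whereas CIP proteins bind complexes of cyclin and kinase, above all those with CDK2. CDKN1A, which encodes p21, is a classical transcriptional target of p53 after DNA damage. The protein of CDKN1B, p27, is governed to a large extent by its degradation, and CDKN2A and CDKN2B lie side by side on 9p21, a region often lost in cancer.

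The start regions of CDKN1A, CDKN2B, CDKN1B and CDKN2A are shown to place the counts on the genome. Each stretch is the 250 bases upstream of a RefSeq transcript start (GRCh38.p14), written 5′ to 3′ on the gene's strand, with each GC box (GGGCGG or its reverse complement CCGCCC, the core that SP1-type factors bind) in capitals. CDKN1A and CDKN2B are given as the genes that rose in the deleted cells under doxorubicin, CDKN1B as one that fell, and CDKN2A because it has 2 starts. CDKN2C, not printed, fell more than CDKN1B there (log2 fold change -0.51 against -0.40). The stretches are chr6:36678464-36678713 on the plus strand for CDKN1A, chr9:22009306-22009555 on the minus strand for CDKN2B and chr12:12717118-12717367 on the plus strand for CDKN1B. Those of CDKN2A are chr9:21974858-21975107, at the inner start, and chr9:21995325-21995574, at the outer start, both on the minus strand.
CDKN1A: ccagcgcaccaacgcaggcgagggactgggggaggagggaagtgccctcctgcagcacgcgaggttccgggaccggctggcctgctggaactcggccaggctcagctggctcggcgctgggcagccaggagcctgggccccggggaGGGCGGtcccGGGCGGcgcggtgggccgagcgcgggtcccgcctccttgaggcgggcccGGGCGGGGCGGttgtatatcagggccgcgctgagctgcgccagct
CDKN2B: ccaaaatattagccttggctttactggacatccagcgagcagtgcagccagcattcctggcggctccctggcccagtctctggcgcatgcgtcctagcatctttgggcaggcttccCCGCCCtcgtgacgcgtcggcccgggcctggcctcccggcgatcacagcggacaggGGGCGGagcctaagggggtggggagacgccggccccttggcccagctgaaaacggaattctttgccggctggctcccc
CDKN1B: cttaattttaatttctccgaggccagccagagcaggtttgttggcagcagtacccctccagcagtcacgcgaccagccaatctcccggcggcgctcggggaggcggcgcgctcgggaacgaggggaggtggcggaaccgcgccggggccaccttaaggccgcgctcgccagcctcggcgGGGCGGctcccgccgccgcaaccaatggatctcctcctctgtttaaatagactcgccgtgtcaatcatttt
CDKN2A, inner start: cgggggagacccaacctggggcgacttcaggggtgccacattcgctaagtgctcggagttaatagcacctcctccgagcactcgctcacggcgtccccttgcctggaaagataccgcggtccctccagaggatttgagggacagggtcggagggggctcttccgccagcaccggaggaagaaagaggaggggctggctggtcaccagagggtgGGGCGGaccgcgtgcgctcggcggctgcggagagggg
CDKN2A, outer start: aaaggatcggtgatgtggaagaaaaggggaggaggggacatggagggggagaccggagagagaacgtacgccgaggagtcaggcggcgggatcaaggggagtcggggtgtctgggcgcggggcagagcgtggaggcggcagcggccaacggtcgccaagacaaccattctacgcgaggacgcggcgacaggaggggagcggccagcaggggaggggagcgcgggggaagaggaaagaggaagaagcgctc
The CDKN1A stretch held 4 GC boxes, that of CDKN2B 2, that of CDKN1B 1, and those of CDKN2A 1 at the inner and 0 at the outer start. Of the stretches not printed, the 3 of CDKN2C, which fell in the same comparison, held 0, 5 and 1 GC boxes, and that of CDKN2D held 2. A GC box was found in 42.6% of all 35116 promoter stretches of the same length. The CDKN1B stretch also held the letters CCAAT 2 times, a motif read on both strands and present in 32.0% of all stretches. Neither the FOXO core GTAAACA (2.98% of all stretches) nor the p53 decamer motif (5.57%) was found in any of the 5 stretches, which says only that these letters are not in these windows. GC content was 76.4% for CDKN1A and between 64.4% and 66.8% for the other 4 stretches, against a median of 58.0% over all stretches.

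All 6 genes were transcribed in all 12 libraries, and all 6 passed the filter on low counts. Library totals ran from 66150539 to 99142099 counts, and the lowest count of any of the 6 genes in a library was 458, for CDKN2D. Levels are given as CPM, read counts relative to library size, after scaling by the trimmed mean of M-values (TMM), and levels of different genes are compared only per kilobase of exon. Calls rest on edgeR's quasi-likelihood test over 21803 genes with a Benjamini-Hochberg adjusted p threshold of 0.05.

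Several measurements on the libraries bear on these values. POLR2A, a 17p gene used to check the label, had mean levels of 482 ± 47.1 CPM in intact and 602 ± 157 CPM in deleted cells in DMSO (SD, n = 3), and it did not pass the threshold (log2 fold change 0.32 ± 0.16, SE; adjusted p = 0.15, edgeR). The median log2 fold change of 399 genes on 17p was -0.12 in the same comparison, against 0.04 for the other genes, so the libraries labelled deleted did not show the drop that loss of 1 of 2 copies would give. Below, intact and deleted name only the label. By a check on the RNA of chromosome-specific transcripts, with no chromosomes examined, the recorded karyotype of HS578T was not met by 12 of 12 libraries. Yet 8 of 8 mesenchymal markers reached a median of 1 CPM, and 0 of 8 markers of blood, endothelial and liver cells did. Of 8 epithelial and hormone receptor markers, 4 reached a median of 1 CPM, namely KRT8 (339 CPM), KRT18 (183 CPM), ERBB2 (97.1 CPM) and KRT19 (1.30 CPM), while EPCAM and CDH1 stayed at or below 0.315 and 0.441 CPM and ESR1 and PGR at or below 0.167 and 0.0767 CPM. The summed level of these 8 markers lay between 473 and 728 CPM over all libraries. The summed level of the mesenchymal markers was 7554 to 7909 CPM in intact and 6080 to 6647 CPM in deleted cells in DMSO, and 4735 to 4850 CPM in deleted cells under doxorubicin. The mitochondrial share of counts was 6.90% in deleted DMSO replicate 2 and 5.54% in intact doxorubicin replicate 1, against 2.61% to 3.57% in the other 10 libraries. In deleted DMSO replicate 2 the deviation of genes from their group mean also fell with transcript GC content (Spearman rho across genes -0.51), whereas it rose in replicates 1 and 3 (0.36 and 0.43). In intact doxorubicin it fell in replicates 1 and 3 (-0.45 and -0.15) and rose in replicate 2 (0.47), and in the other 6 libraries rho lay between -0.051 and 0.052. The part of these differences in the results was not tested, and values without those 2 libraries are given where they change a call. In bulk RNA, a change in the share of cells that express a gene and a change in RNA per cell cannot be told apart.

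CDKN1A, on chromosome 6 (36676460 to 36687339, plus strand), changed most of the 6 genes. Its level was 62.7, 65.0 and 72.0 CPM in the 3 intact DMSO libraries and 63.1, 88.5 and 79.8 CPM in the intact doxorubicin libraries. It was 82.8, 50.7 and 84.5 CPM in the deleted DMSO libraries and 1296, 1115 and 1281 CPM in the deleted doxorubicin libraries. The 3 deleted libraries under 1 µM doxorubicin stood far above the other 9, which overlapped among themselves. CDKN1A was 16.9-fold higher in treated than in untreated deleted cells (log2 fold change 4.08 ± 0.19, SE; adjusted p = 4.0e-09, edgeR). In intact cells at 170 nM the log2 fold change was 0.21 ± 0.17 and did not pass the threshold (adjusted p = 0.67, edgeR). The difference of the 2 doxorubicin effects was 3.87 ± 0.25 on the log2 scale (adjusted p = 2.5e-07, edgeR), with genotype and dose changing together. Under doxorubicin the deleted cells had a higher level than the intact cells (log2 fold change 3.996 ± 0.19, adjusted p = 2.4e-09, edgeR). The genotypes did not differ past the threshold in DMSO (log2 fold change 0.13 ± 0.17, adjusted p = 0.61, edgeR). Without the 2 libraries of high mitochondrial share, that last value was 0.30 and passed (adjusted p = 0.017, edgeR). DINOL, a noncoding gene on the opposite strand inside the CDKN1A locus, had 0 to 16 counts in the other 9 libraries and 50, 91 and 72 counts in the treated deleted libraries, where CDKN1A had at least 101349. The strand setting of the counting is not given in the sources used here, and reads of the 2 genes may not be separable.

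**Figure D1:**
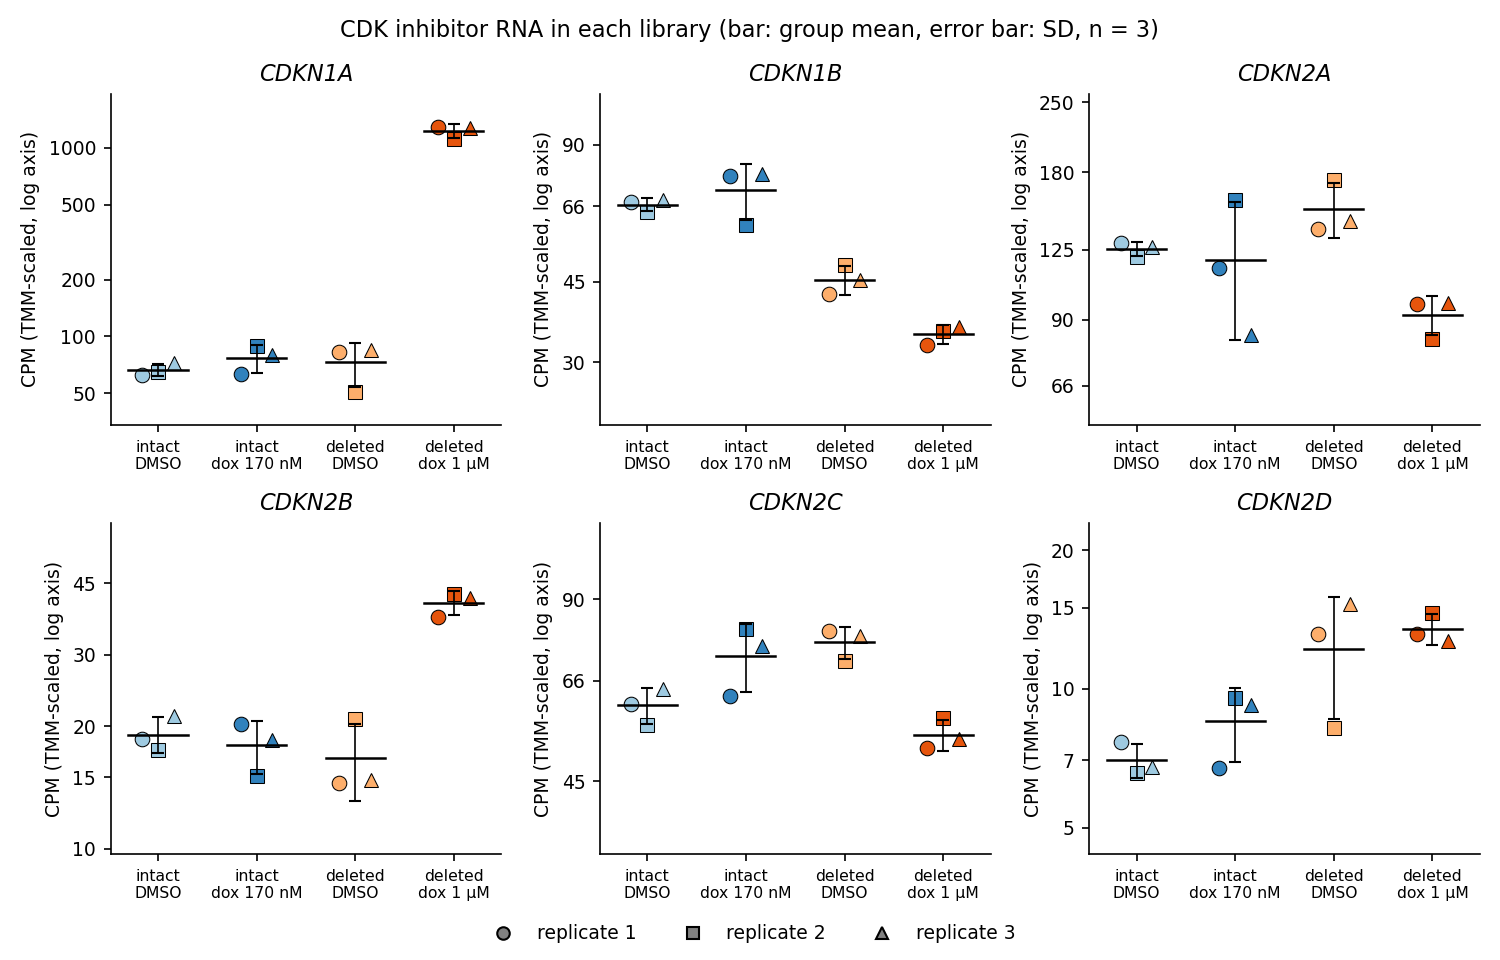
TMM-scaled CPM of each of the 6 CDK inhibitor genes (log axis) in the 12 libraries, by group, with the replicate number as the marker shape, a bar for the group mean and an error bar for the SD (n = 3). CDKN1A in the deleted cells under 1 µM doxorubicin lies between 1115 and 1296 CPM, above the other 9 libraries, and CDKN2B is highest in the same 3 libraries.

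CDKN1B, on chromosome 12 (12715058 to 12722371, plus strand), was lower in the deleted cells in both conditions. Its level was 67.4, 64.0 and 67.9 CPM in intact DMSO and 76.9, 60.05 and 77.7 CPM in intact doxorubicin libraries. It was 42.3, 48.9 and 45.4 CPM in deleted DMSO and 32.7, 35.1 and 35.9 CPM in deleted doxorubicin libraries. All 6 intact libraries lay above all 6 deleted ones, and the treated deleted libraries were the lowest. The deleted cells had 0.685 times the intact level in DMSO (log2 fold change -0.55 ± 0.11, SE; adjusted p = 0.0013, edgeR). Under doxorubicin they had 0.483 times that level (log2 fold change -1.05 ± 0.11, adjusted p = 2.7e-06, edgeR). CDKN1B fell with doxorubicin in the deleted cells (log2 fold change -0.40 ± 0.11, adjusted p = 0.012, edgeR), a call that was lost without deleted doxorubicin replicate 1 (adjusted p = 0.056). In intact cells its log2 fold change was 0.11 ± 0.11 (adjusted p = 0.74, edgeR). The difference of the doxorubicin effects passed narrowly (-0.50 ± 0.15, adjusted p = 0.034, edgeR) and passed in only 11 of 24 analyses, with the adjusted p between 0.0025 and 0.11. Without the 2 libraries of high mitochondrial share it was -0.41 and did not pass (adjusted p = 0.067). It was lost on leaving out any 1 of 9 libraries, namely the 3 intact DMSO, the 3 deleted doxorubicin, deleted DMSO replicate 3 and intact doxorubicin replicates 1 and 3. AC008115.3, annotated inside CDKN1B on the same strand, had 86 to 199 counts in the 6 intact and 35 to 90 in the 6 deleted libraries. CDKN1B had at least 2559 counts in every library, and reads of these 2 genes may not be separable.

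CDKN2B, which encodes p15INK4b and is known as a gene induced by TGF-beta, lies on chromosome 9 (22002903 to 22009363, minus strand). Its level was 18.6, 17.5 and 21.2 CPM in intact DMSO and 20.3, 15.1 and 18.5 CPM in intact doxorubicin libraries. It was 14.5, 20.8 and 14.8 CPM in deleted DMSO and 37.2, 42.3 and 41.5 CPM in deleted doxorubicin libraries. The treated deleted libraries were again the highest 3, with no overlap with the other 9. CDKN2B was 2.42-fold higher in treated than in untreated deleted cells (log2 fold change 1.27 ± 0.15, SE; adjusted p = 2.5e-05, edgeR). The log2 fold change in intact cells was -0.09 ± 0.15 (adjusted p = 0.87, edgeR), and the difference of the effects was 1.36 ± 0.21 (adjusted p = 0.00055, edgeR). The deleted cells were higher than the intact cells under doxorubicin (1.17 ± 0.15, adjusted p = 2.6e-05, edgeR). In DMSO the genotypes did not differ past the threshold (-0.19 ± 0.15, adjusted p = 0.36, edgeR). That value was -0.42 (adjusted p = 0.013) without the 2 libraries of high mitochondrial share, and -0.41 (adjusted p = 0.029) without deleted DMSO replicate 2 alone, which had the highest CDKN2B level of its group.

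CDKN2A, the neighbour of CDKN2B on chromosome 9 (21967753 to 21995301, minus strand), fell in the deleted cells under doxorubicin, while CDKN2B rose. The gene encodes p16INK4a from its inner start and p14ARF, an inhibitor of MDM2, from its outer start, and a count per gene cannot tell these transcripts apart. Its level was 129, 121 and 126 CPM in intact DMSO and 115, 158 and 83.9 CPM in intact doxorubicin libraries. It was 138, 174 and 143 CPM in deleted DMSO and 96.96, 82.2 and 97.1 CPM in deleted doxorubicin libraries. The intact doxorubicin libraries were the most scattered, with replicate 3 inside the range of the treated deleted libraries and replicate 2 above all intact DMSO libraries. In the deleted cells under doxorubicin CDKN2A fell to 0.607 times the DMSO level (log2 fold change -0.72 ± 0.18, SE; adjusted p = 0.0067, edgeR). The intact cells showed -0.08 ± 0.17 (adjusted p = 0.91, edgeR), which turned to 0.12 without intact doxorubicin replicate 3. Between the genotypes CDKN2A had 0.27 ± 0.18 in DMSO (adjusted p = 0.25, edgeR), with no overlap of the libraries, and -0.37 ± 0.18 under doxorubicin (adjusted p = 0.099, edgeR). The latter value passed the threshold without deleted DMSO replicate 2 (-0.40, adjusted p = 0.047) or intact doxorubicin replicate 3 (-0.57, adjusted p = 0.0063). The difference of the effects, -0.64 ± 0.25, did not pass the threshold (adjusted p = 0.095, edgeR). It passed in 4 of 24 analyses, among them the one without intact doxorubicin replicate 3 (-0.84, adjusted p = 0.011) and the one with the GC trend of each library removed (-1.13, adjusted p = 0.0036).

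CDKN2B-AS1, an antisense noncoding gene that runs across CDKN2B and into the outer start of CDKN2A, had 467 to 665 counts in the 6 intact and 815 to 1177 counts in the 6 deleted libraries. As the strand setting is unknown, its reads may not be separable from those of CDKN2A and CDKN2B where they overlap. It was higher in deleted cells in DMSO (log2 fold change 0.69 ± 0.13, SE; adjusted p = 0.0011, edgeR) and showed -0.05 ± 0.13 with doxorubicin in the deleted cells (adjusted p = 0.81, edgeR). Of 8 other genes listed around CDKN2A and CDKN2B on 9p21, CDKN2B-AS1 included, 7 could be tested. The list was chosen with earlier results of these data known. In DMSO 5 of 7 were higher in the deleted cells and 0 lower, where 18.8% of all genes were higher and 16.2% lower, with a median log2 fold change of 0.62 against 0.04 over all genes tested. KLHL9, which encodes an adaptor of a ubiquitin ligase, was one of them (0.91 ± 0.09, adjusted p = 6.3e-06, edgeR). CDKN2A and CDKN2B were not among the genes called in that comparison. With doxorubicin in the deleted cells 0 of 7 rose and 1 fell, near the 13.1% of all genes that fell (17.5% rose), and that gene was KLHL9 (-0.48 ± 0.09, adjusted p = 0.0013, edgeR).

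CDKN2C, which encodes p18INK4c on chromosome 1 (50960745 to 50974633, plus strand), differed in opposite directions in the 2 conditions. Its level was 60.4, 55.9 and 64.0 CPM in intact DMSO and 62.2, 80.3 and 75.3 CPM in intact doxorubicin libraries. It was 79.8, 71.1 and 78.4 CPM in deleted DMSO and 51.1, 57.2 and 52.9 CPM in deleted doxorubicin libraries. The deleted libraries lay above the intact ones in DMSO and below them under doxorubicin, without overlap. The log2 fold change between genotypes was 0.35 ± 0.10 in DMSO (SE; adjusted p = 0.020, edgeR) and -0.43 ± 0.10 under doxorubicin (adjusted p = 0.0037, edgeR). The call in DMSO held in 16 of 25 analyses. It was lost on leaving out any 1 of 7 libraries, with the log2 fold change between 0.25 and 0.35 and the adjusted p between 0.057 and 0.17. These were intact DMSO replicates 1 and 2, deleted DMSO replicates 1 and 3 and the 3 deleted doxorubicin libraries. CDKN2C fell with doxorubicin in the deleted cells (-0.51 ± 0.11, adjusted p = 0.0022, edgeR). In the intact cells its value was 0.27 ± 0.10 (adjusted p = 0.34, edgeR), and the difference of the effects was -0.78 ± 0.15 (adjusted p = 0.0024, edgeR).

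CDKN2D, which encodes p19INK4d on chromosome 19 (10566462 to 10569059, minus strand), had the lowest CPM of the 6 genes and was higher in the deleted cells. Its level was 7.67, 6.56 and 6.78 CPM in intact DMSO and 6.73, 9.55 and 9.24 CPM in intact doxorubicin libraries. It was 13.1, 8.24 and 15.3 CPM in deleted DMSO and 13.2, 14.6 and 12.7 CPM in deleted doxorubicin libraries. Within each condition no deleted library overlapped an intact one. The deleted cells had a 1.75-fold higher level in DMSO (log2 fold change 0.80 ± 0.20, SE; adjusted p = 0.0063, edgeR) and a 1.59-fold higher level under doxorubicin (0.67 ± 0.20, adjusted p = 0.012, edgeR). The second call was lost without intact doxorubicin replicate 1 (0.48, adjusted p = 0.080) or deleted doxorubicin replicate 2 (0.56, adjusted p = 0.064). Doxorubicin gave 0.28 ± 0.20 in intact cells (adjusted p = 0.61, edgeR) and 0.14 ± 0.19 in deleted cells (adjusted p = 0.63, edgeR). The value in deleted cells was -0.09 without deleted DMSO replicate 2, and without both libraries of high mitochondrial share the difference of the effects was -0.51 and passed the threshold (adjusted p = 0.036).

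**Figure D2:**
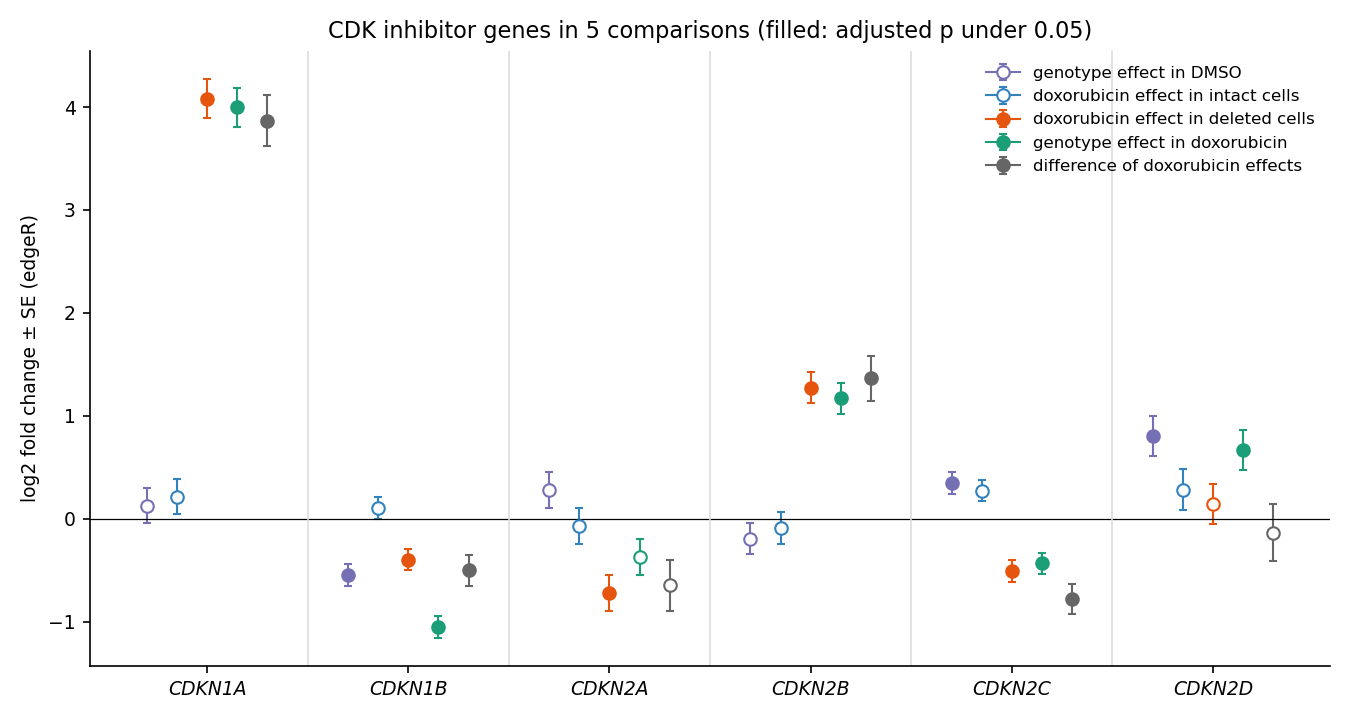
Log2 fold change with its SE (edgeR) of the 6 CDK inhibitor genes in each of 5 comparisons, with filled points where the adjusted p is under 0.05. CDKN1A and CDKN2B have the only filled points above 1, CDKN1A near 4 and CDKN2B between 1.17 and 1.36, and none of the points for doxorubicin in intact cells is filled.

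Counted over the family, doxorubicin at 1 µM in the deleted cells was called in 5 of 6 genes, where 30.7% of all genes tested were called. CDKN1A and CDKN2B were the 2 higher genes, against 17.5% of all genes, and CDKN1B, CDKN2A and CDKN2C the 3 lower ones, against 13.1%. At 170 nM in the intact cells 0 of 6 were called, where 0.0596% of all genes tested were, a share at which 0 of 6 says little about these genes. Counted at an unadjusted threshold of 0.05, 1 of 6 passed in that comparison, CDKN2C, near the 11.5% of all genes that did. DESeq2 and limma-voom called 0 of 6 there as well. Between the genotypes 3 of 6 were called in DMSO, against 34.9% of all genes, with 2 higher in the deleted cells (18.8% of all genes) and 1 lower (16.2%). Under doxorubicin 5 of 6 were called, against 47.8%, with 3 higher (25.9%) and 2 lower (21.9%). The difference of the doxorubicin effects was called in 4 of 6, against 17.0% of all genes, with 2 higher (10.3%) and 2 lower (6.74%). The libraries of the compared groups did not overlap for 5 of 6 genes with doxorubicin in the deleted cells, against 45.3% of all genes, and for 0 of 6 in the intact cells, against 19.4%. Between the genotypes that was so for 4 of 6 in DMSO, against 49.5%, and for 5 of 6 under doxorubicin, against 57.1%. With a 2-fold change required as well, 2 of 6 were called for doxorubicin in deleted cells, against 13.4% of all genes. Between the genotypes it was 0 of 6 in DMSO, against 12.2%, and 3 of 6 under doxorubicin, against 22.6%.

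Per kilobase of exon, CDKN2A had the highest mean of the 6 genes in 3 of the 4 groups and CDKN1A in the treated deleted cells. In intact DMSO CDKN2A stood at 28.95 ± 0.939 CPM per kb (SD, n = 3), followed by CDKN1B with 23.6 ± 0.760 and CDKN1A with 21.8 ± 1.595, whose libraries overlapped. CDKN2C followed with 18.1 ± 1.24 CPM per kb, and CDKN2B (4.71 ± 0.478) and CDKN2D (4.66 ± 0.389) came last and overlapped. In deleted DMSO CDKN2A again led (35.0 ± 4.48 CPM per kb). By its mean, CDKN1B, at 16.2 ± 1.18, came after CDKN1A and CDKN2C, which overlapped. The CDKN1B libraries lay below those of CDKN2C but overlapped those of CDKN1A, and in replicate 2 CDKN1B stood above CDKN1A. In intact doxorubicin the libraries of CDKN2A, CDKN1B, CDKN1A and CDKN2C overlapped from each gene to the next, and all 4 stood clear of CDKN2D and CDKN2B. In the treated deleted cells CDKN1A reached 404 ± 33.1 CPM per kb, and CDKN2A, next in the order, 21.3 ± 1.98.

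CDKN1A made up 21.4% ± 1.14 of the summed per-length level of the 6 genes in intact DMSO, 21.5% ± 5.06 in deleted DMSO and 22.9% ± 2.39 in intact doxorubicin (SD, n = 3). In the treated deleted cells its share was 85.4% ± 1.13. The summed per-length level of the 4 INK4 genes was 56.4 ± 2.63 CPM per kb in intact DMSO, 70.3 ± 1.98 in deleted DMSO, 59.5 ± 9.88 in intact doxorubicin and 56.4 ± 0.649 in deleted doxorubicin. The deleted DMSO libraries were thus the highest on average, and their range of 68.2 to 72.2 overlapped only that of intact doxorubicin, 52.8 to 70.8. The CDKN2A part of the INK4 sum includes any transcripts of p14ARF. The sum of the 2 CIP genes was 45.5 ± 2.02, 40.02 ± 5.25, 50.8 ± 2.90 and 416 ± 32.8 CPM per kb in the same order.

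**Figure D3:**
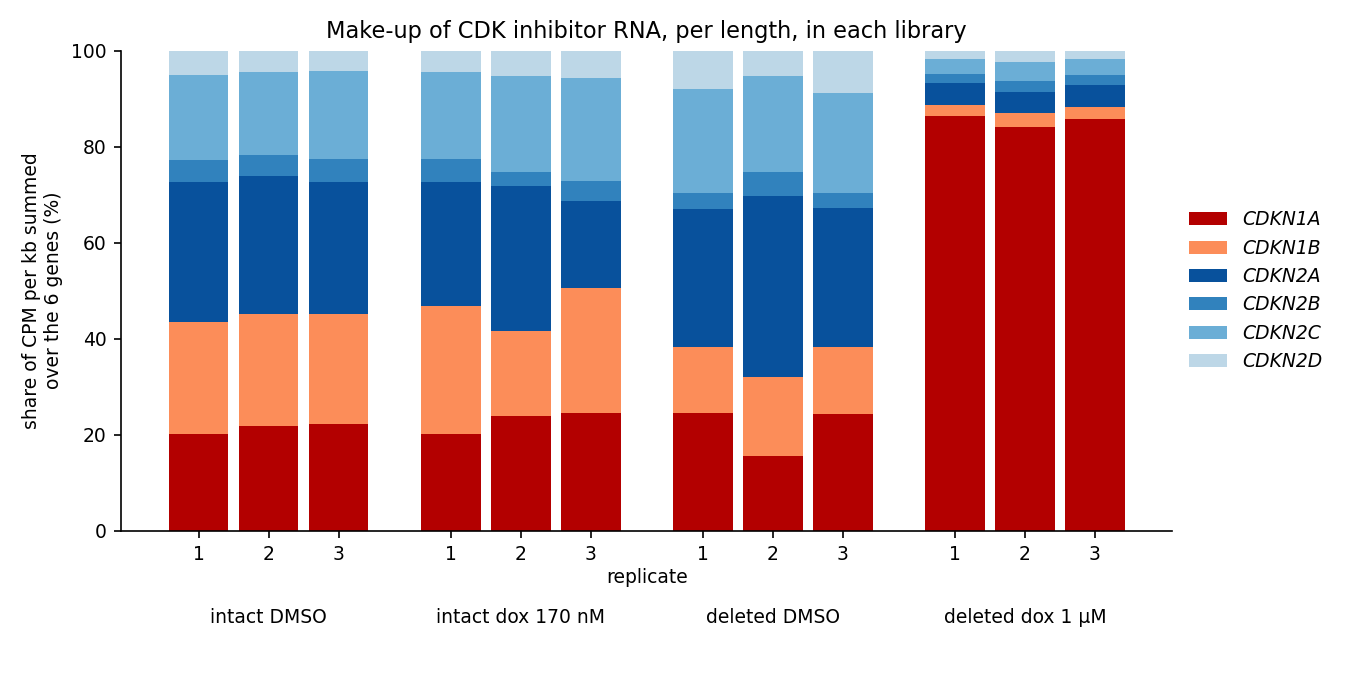
Share (%) of each of the 6 CDK inhibitor genes in their summed CPM per kilobase of exon, 1 bar per library, CIP genes in red and orange and INK4 genes in blue. CDKN1A takes 84.1% to 86.3% in the 3 treated deleted libraries and 15.7% to 24.6% in the other 9.

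CDKN1C and CDKN3 also carry CDK inhibitor names and were listed beside the 6 genes. CDKN1C, which encodes p57, another CIP protein, was lower in the deleted cells in DMSO, with means of 5.56 CPM in intact and 2.63 CPM in deleted cells (log2 fold change -1.08 ± 0.17, SE; adjusted p = 0.00032, edgeR). Its value with doxorubicin in the deleted cells was -0.36 ± 0.18 (adjusted p = 0.15, edgeR). CDKN3, which encodes a phosphatase acting on CDK2, was higher in deleted cells in DMSO (0.76 ± 0.16, adjusted p = 0.0021, edgeR) and fell there with doxorubicin (-0.60 ± 0.16, adjusted p = 0.010, edgeR).

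The genes that the inhibitors act on were counted next, each count read against the share of all genes tested. This list and those below were chosen with earlier results of these data known, so the counts only describe them. Of 10 cyclins and kinases of G1 and S phase, 4 rose and 1 fell with doxorubicin in the deleted cells, where 17.5% of all genes rose and 13.1% fell (median log2 fold change 0.32, against -0.02 over all genes tested). CCNE1, a partner of CDK2, rose (0.77 ± 0.11, adjusted p = 0.00016, edgeR), and CCNA2, the cyclin of S phase and G2, fell (-1.25 ± 0.12, adjusted p = 2.3e-06, edgeR). CDK4, the kinase held by INK4 proteins, had -0.37 ± 0.18 (adjusted p = 0.14, edgeR). In DMSO 1 of the 10 was higher and 4 were lower in the deleted cells, where 18.8% of all genes were higher and 16.2% lower. Among the lower genes were CCND2 (-3.41 ± 0.35, adjusted p = 8.1e-06, edgeR) and CDK6 (-0.80 ± 0.18, adjusted p = 0.0034, edgeR). CCND2 was scarce, with means of 2.48 CPM in intact and 0.235 CPM in deleted cells. CCND1 had 149 and 124 CPM there (-0.26 ± 0.09, adjusted p = 0.036, edgeR). CCND3 had 59.7 and 62.5 CPM (0.07 ± 0.11, adjusted p = 0.70, edgeR). Of 13 RB and E2F genes, 7 rose and 2 fell with doxorubicin in the deleted cells (17.5% and 13.1% of all genes; median 0.33). E2F7, a repressor of E2F targets, rose 3.59-fold (1.84 ± 0.12, adjusted p = 9.1e-08, edgeR), and E2F8, its relative, rose as well (0.79 ± 0.13, adjusted p = 0.00029, edgeR). In DMSO 4 of the 13 were higher and 2 lower in deleted cells (18.8% and 16.2% of all genes).

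Regulators of the inhibitors were counted in the same way. Of 11 genes for the turnover of p27 and p21, 2 rose and 2 fell with doxorubicin in the deleted cells (median 0.06), near the shares of all genes (17.5% and 13.1%). PCNA, the replication clamp that p21 binds, rose (0.93 ± 0.10, adjusted p = 1.3e-05, edgeR), and CUL4A, a scaffold of the ligase that degrades p21, fell (-0.53 ± 0.08, adjusted p = 0.00020, edgeR). The other called genes of this list were DTL, which rose (0.60 ± 0.10, adjusted p = 0.00048, edgeR), and SKP2, which fell (-0.56 ± 0.09, adjusted p = 0.00036, edgeR). Between the genotypes in DMSO 3 of the 11 were higher and 1 lower in the deleted cells, against 18.8% and 16.2% of all genes. Of 10 Polycomb genes and their opponents, 2 rose and 1 fell (median 0.05), again near those shares of 17.5% and 13.1%. KDM6B, which removes the Polycomb mark, rose (0.64 ± 0.09, adjusted p = 0.00015, edgeR), as did EED (0.50 ± 0.10, adjusted p = 0.0012, edgeR), a subunit of the complex that writes it. Between the genotypes in DMSO 1 of the 10 was higher and 1 lower in the deleted cells, against 18.8% and 16.2% of all genes. Of 13 transcription factors that act on CDK inhibitor genes, 5 rose and 0 fell (17.5% and 13.1% of all genes; median 0.12), with KLF4, an activator of CDKN1A, at 1.36 ± 0.12 (adjusted p = 1.1e-06, edgeR). ETS2, an activator of CDKN2A, rose by 0.74 ± 0.08 on the log2 scale (adjusted p = 8.6e-06, edgeR). SP1, the most abundant of those not called, had 0.11 ± 0.13 (adjusted p = 0.60, edgeR). Between the genotypes in DMSO 4 of the 13 were higher and 5 lower in the deleted cells, against 18.8% and 16.2% of all genes (median -0.22). SMAD2 (0.73 ± 0.11, adjusted p = 0.00018, edgeR) was among the higher genes and ETS1 (-0.62 ± 0.09, adjusted p = 0.00010, edgeR) among the lower ones. Of 14 p53 target genes other than CDKN1A, 14 rose in the deleted cells (median 2.10), where 17.5% of all genes did. In the intact cells 0 of 14 were called, where 0.0596% of all genes were (median 0.07). BTG2, an antiproliferative gene, showed 3.85 ± 0.09 (adjusted p = 3.8e-11, edgeR), and GDF15, a stress cytokine, 4.78 ± 0.19 (adjusted p = 1.3e-09, edgeR). In DMSO, 5 of the 14 were higher in deleted than intact cells and 0 lower (18.8% and 16.2% of all genes; median 0.23).

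**Figure D4:**
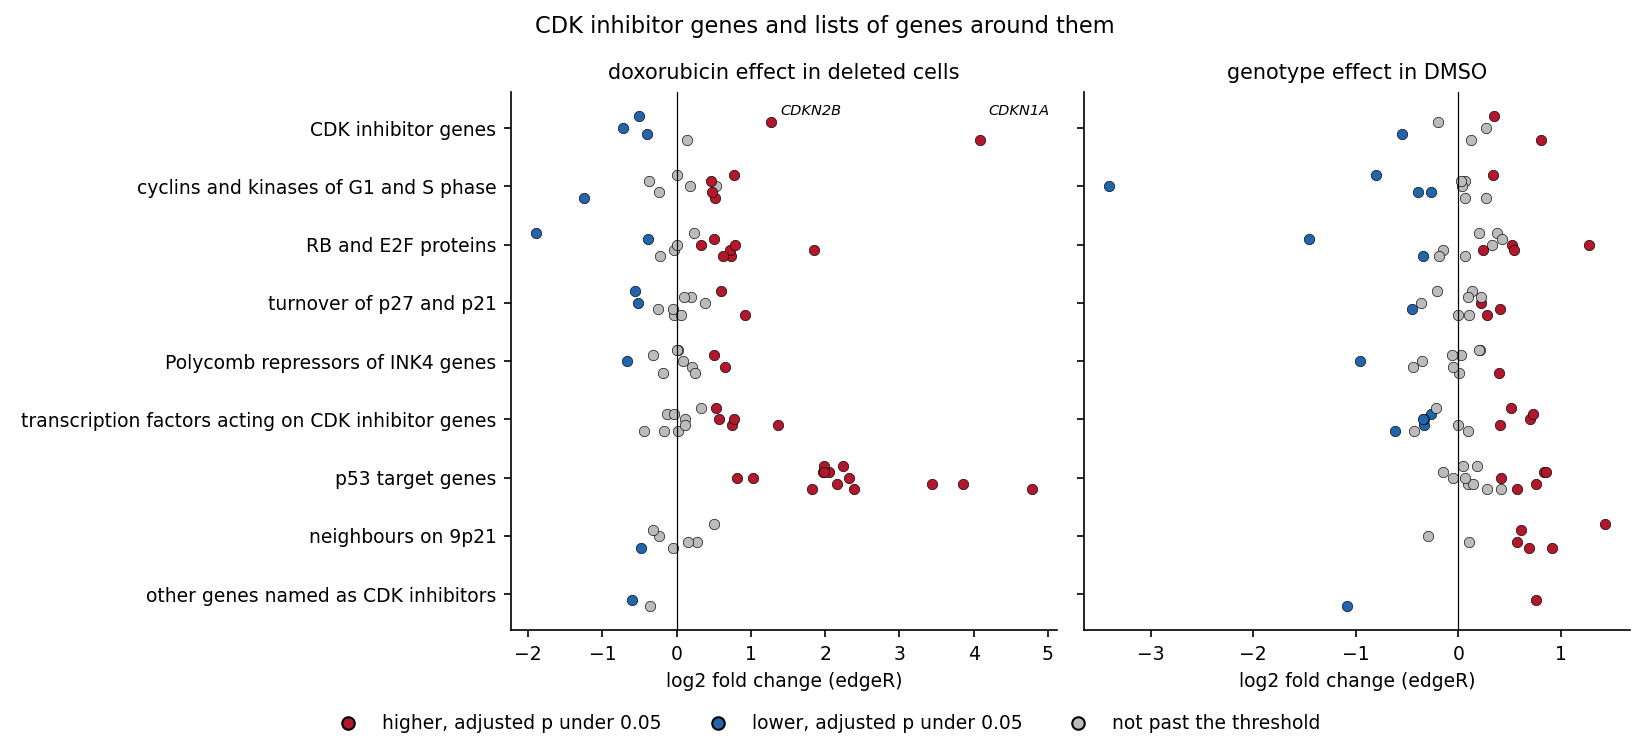
Log2 fold changes (edgeR) of the 6 CDK inhibitor genes and of 8 lists of genes around them, for doxorubicin in the deleted cells (left) and for deleted against intact cells in DMSO (right), red for higher and blue for lower at an adjusted p under 0.05. On the left, CDKN1A at 4.08 lies among the p53 target genes, 14 of 14 of which are red, and CDKN2B at 1.27 stands apart from the 3 inhibitor genes that fell.

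For each gene, the 3 genes with the most similar level across the 12 libraries were taken from 10897 genes with a mean of at least 5 CPM, by Pearson's r of log2(CPM + 1). This is a description over 12 libraries that share their groups and scaling. CDKN1A was nearest to KCTD11 (r = 0.998), SIDT2 and GDF15 (both 0.996), and after removal of the group means r was 0.890, 0.846 and 0.834. CDKN2B was nearest to PMAIP1, which encodes the BH3-only protein NOXA (r = 0.986), PER2 (0.980), a clock gene, and RGL1 (0.978). CDKN1B was nearest to HMGCS1 (0.994), an enzyme of cholesterol synthesis, KPNB1 (0.990), a nuclear import receptor, and CDC42 (0.990), a small GTPase. CDKN2C was nearest to CENPA (0.953), CCNB2 (0.928) and TACC3 (0.920), which act at the centromere, in mitotic entry and at the spindle. CDKN2A had MRPL57 (0.960), SMAGP (0.933) and ATP6V1E2 (0.931), and CDKN2D had UNC119 (0.973), RALY and AACS (both 0.968). Among the 6 genes, CDKN1A and CDKN2B had r = 0.907 over the 12 libraries and -0.804 after removal of the group means. Deleted DMSO replicate 2, which stood apart in mitochondrial share and GC trend, had the lowest CDKN1A and the highest CDKN2B of its group. Intact DMSO replicate 3 had the highest level of both genes in its group. In intact doxorubicin and in deleted doxorubicin, the order of the libraries by CDKN1A was the reverse of that by CDKN2B. After removal of the group means, r was 0.825 for CDKN1A and CDKN2D and 0.816 for CDKN1B and CDKN2B. Transcript GC content was 58.6% and 61.4% for the first pair and 47.2% and 50.7% for the second. CDKN2A, at 60.8%, had r = -0.083 with CDKN1A. The part of GC content in these values was not tested.

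**Figure D5:**
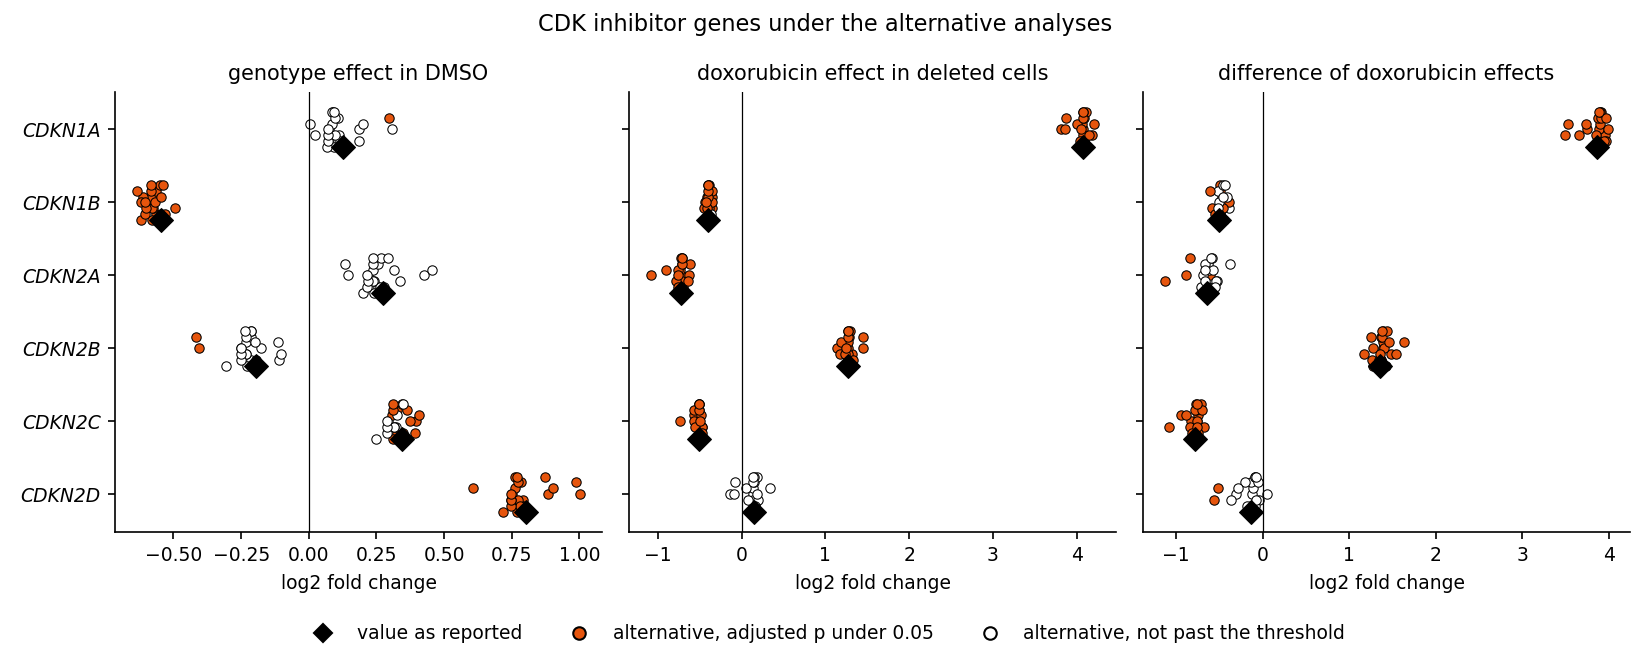
Log2 fold change of each of the 6 CDK inhibitor genes in 3 comparisons under the reported analysis (black diamond) and under each alternative (circles, filled where the adjusted p is under 0.05). CDKN1A and CDKN2B stay filled in all analyses of doxorubicin in the deleted cells and of the difference of effects, while CDKN1B is filled in 11 of 24 analyses of the difference.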

How the data were processed

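RNA-seq counts per gene from 12 libraries (100-base paired reads, per the labels' protocols) were deposited as one table of whole-number counts. Per the submitters' processing notes, reads were handled with bcl2fastq, STAR 2.7.9a and featureCounts of Subread 2.0.1 on hg38. For the annotation release and strand, settings were not given in the sources used here. Gene positions and exon lengths came from GENCODE 29, which may not be the release of the authors, and 58429 of 60660 identifiers had a position there. Exon length is the union of the exons of all annotated transcripts of a gene, so levels per kilobase depend on the annotation.

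All 12 libraries were fitted in one model with a term per group (edgeR 4.0.16, filterByExpr, TMM, quasi-likelihood F test, R 4.3.3), and p-values were adjusted by Benjamini-Hochberg over 21803 genes. SEs are the log2 fold change divided by the root of F. The members and gene lists were chosen with earlier results of these data known. Named list genes were drawn from the 2 called with the lowest p in a list and the most abundant not called. Not all of these are named in the text, which leaves out many of those in DMSO and of those not called. DTL, SKP2, CCND1 and CCND3 were named besides these. Same-numbered libraries did not deviate together (correlations -0.19 to 0.11), so the numbers were not used as pairs. In no group did a pair of libraries agree within sampling noise (chi-square per degree of freedom at least 7.72). That value was 7.72 to 23.9 within intact DMSO and within deleted doxorubicin, and 70.3 to 150 within intact doxorubicin. It was 177 and 180 for the pairs with deleted DMSO replicate 2. The spread was thus unequal, while the model shared one estimate of it over all groups. Scripts were tested on simulated data. Alternatives covered scaling, filters, DESeq2 1.42.0, limma-voom 3.58.1, samples in the fit, GC content, a replicate block and libraries left out. Removal of each library's GC trend by an ordinary loess was planned. A robust loess was added after the first was seen to shift the median of all genes and to change calls, and both are reported.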

Additional observations from a re-analysis of the deposited data

Results flagged for a closer look

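The response to doxorubicin differed between the labelled genotypes for 4 of the 6 CDK inhibitor genes, by the test of the difference itself in edgeR, with the dose changing together with the genotype. Over all genes tested 17.0% were called in that test. The difference on the log2 scale was 3.87 for CDKN1A and 1.36 for CDKN2B, both higher in the deleted cells. It was -0.50 for CDKN1B and -0.78 for CDKN2C, both lower in the deleted cells. The CDKN1B call passed in only 11 of 24 analyses and was lost on leaving out any 1 of 9 libraries. Genotype and dose cannot be told apart in these 4 values. With 3 libraries in a group, single libraries were not screened as outliers.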

How the results depend on the processing

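Each of the 6 genes was refitted under up to 24 alternative fits. CDKN1A and CDKN2B kept direction and call for doxorubicin in deleted cells, for the genotypes under doxorubicin and for the difference of effects in all fits made for these comparisons, and passed when a 2-fold change was also required.

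Removing an ordinary loess GC trend, the planned form, changed several calls. The median log2 fold change of all genes moved to -0.20 for the difference of effects, -0.16 between genotypes under doxorubicin and -0.14 for doxorubicin in deleted cells. Calls became 677 (567 higher, 110 lower) against 13 (6 and 7) for doxorubicin in intact cells, and 6855 (2126 and 4729) against 3705 (2235 and 1470) for the difference. They were 3604 higher and 5478 lower against 3822 and 2862 for doxorubicin in deleted cells, and 4924 and 7373 against 5655 and 4766 between genotypes under doxorubicin. CDKN2C became called in intact cells (0.35, adjusted p = 0.041), making 1 of 6 there. CDKN2A became called between genotypes under doxorubicin (-0.70) and in the difference (-1.13), as did CDKN2D in the difference (-0.56). CDKN2D with doxorubicin in deleted cells turned to -0.14 and CDKN2A in intact cells to 0.047, KDM6B was lost (0.28) and CDKN1C gained (-0.71) in deleted cells. The robust loess, added after these values were seen, gave 362 calls in intact cells (147 and 215), also called CDKN2A in the difference (-0.89, adjusted p = 0.033) and CDKN1C (-0.52) and MTAP (0.21) in deleted cells, and gave no other of these changes. Why the 2 forms differ was not tested.

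Calls for doxorubicin in intact cells were 48 with library totals (7 higher, 41 lower), 196 with no filter, 65 with 1 CPM in 3 libraries, 460 with DESeq2, 25 with limma-voom, 0 with only the groups compared, 0 with the replicate block, 195 without the 2 libraries of high mitochondrial share, and 0 to 220 on leaving out 1 library. Library totals moved the median of the difference from -0.03 to 0.08, with 2536 higher and 1020 lower. A 2-fold change left 2651 calls between genotypes in DMSO, 2 and 2921 for doxorubicin in intact and deleted cells, 4926 between genotypes under doxorubicin and 1984 for the difference. Of the 6 genes it left 0, 0, 2, 3 and 2 in the same order. Without the 2 libraries 5 of 6 were called between genotypes in DMSO, the CDKN1B difference was not called (-0.41), and CDKN2D with doxorubicin in deleted cells turned to -0.085. On leaving out 1 library the 6 genes gave 2 to 4 calls between genotypes in DMSO, 0 to 0 and 4 to 5 for doxorubicin in intact and deleted cells, 4 to 6 between genotypes under doxorubicin and 3 to 4 for the difference. Single omissions turned the sign within -0.34 to 0.12 for CDKN2A and -0.18 to 0.018 for CDKN2B in intact cells, and within -0.091 to 0.34 for CDKN2D in deleted cells and -0.37 to 0.055 in the difference. The replicate block ended the call of the CDKN1B difference (-0.50, adjusted p = 0.065), left 1867 higher and 1046 lower calls over all genes there and changed no other call among the 6 genes. The cause of these changes was not tested. Counting error limited these values little, since no member had under 458 counts in a library.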
